A study of Mus musculus with 64 samples.

Results

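The 20 insertion positions with the most reads were taken in each of 23 mouse tails, 12 from the PiggyBac (PB) screen and 11 from the Sleeping Beauty (SB) screen. Reads were summed per tail and position on the autosomes without chromosome 14, and ties went to the lower chromosome and then to the lower position. This gave 460 positions, 240 in PB tails and 220 in SB tails, of 99340 positions in the tails and 301451 in all 64 samples. The positions were chosen by read coverage, so their read numbers are a description without a test, and tests were run only on measures that the selection did not use.

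The study mapped transposon insertions in diffuse large B cell lymphomas (30 PB and 11 SB tumours) and used tail DNA as the control tissue. PB mice carried the label genotype IMPB and SB mice the label genotype IMSB. The transposase was a constitutive knock-in at Rosa26 (Rosa26PB or Rosa26SB), and was combined with ITP transposon lines. The SB mice came from crosses of Rosa26 SB/+ mice with ITP1-C or ITP2-M mice, with Blm m3/m3 in both parents, and all mice had a mixed C57BL/6 x 129Sv x FVB background. Which ITP line and which age each mouse had is not given in the sources used here. Each tail was 1 sample of whole-tail DNA, which holds skin, connective tissue, bone, muscle and blood cells together, so a position with many reads cannot be assigned to a cell type.

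A DNA transposon is cut out of its donor site by its transposase and inserts elsewhere, PB at the bases TTAA and SB at the bases TA. When a cell with an insertion divides, all its daughters carry that insertion at the same base and on the same strand, and its share of the DNA grows with the clone. Reads come from amplified junctions, and the sources used here do not say whether counts were corrected for amplification. The paper calls the sequencing quantitative and assumes that coverage of an insertion site follows clonal expansion. A read share can reflect clone size and the ease of amplifying that junction together, and these cannot be told apart here. In a gene trap transposon, an intronic insertion can interrupt a transcript in either orientation.

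The sequences of the positions that carry the results are given as 30 bases of the plus strand of GRCm38 (RefSeq), 5′ to 3′, with the insertion motif in capitals. The first 9 are positions that took at least 1% of the reads of a tail. The last 4 are positions that ranked among the 20 most covered in several SB tails by reads summed over strands.
Tomm20 intron, PB tail 12, chr8:126944366-126944395: ccgtactttacagTTAAggagatttttagt
Rwdd4a intron, PB tail 3, chr8:47538039-47538068: tggtatcaccttcTTAAagatggcttccca
Xrn1 intron, PB tail 3, chr9:95998055-95998084: tttattactgtatTTAAaaaaaaaagtttg
Plec coding exon, PB tail 2, chr15:76174669-76174698: cagcaaccccttcTTAAgggcctggtagat
Fbxw11 intron, PB tail 6, chr11:32663973-32664002: cgtttttatgcttTTAAaacctttcccact
Khdrbs2 intron, PB tail 6, chr1:32426522-32426551: ttttgaaaggtgtTTAAgagcatttacaca
Bmpr1b intron, SB tail 7, chr3:141866437-141866466: gttgaaagtgcacgTActttgcagtgttgt
Csmd1 intron, SB tail 6, chr8:17471464-17471493: tccagtatattctaTAtgtacacacagaca
Atg5 intron, SB tail 10, chr10:44348048-44348077: agagcgtctcatggTAagtgttcactaacc
En2 intron, 5 SB tails, chr5:28169837-28169866: ttattgggatccccTAgtttgtgataggcc
En2 intron, 5 SB tails, chr5:28169847-28169876: cccctagtttgtgaTAggccttttagctac
En2 coding exon, 9 SB tails, chr5:28170221-28170250: ttcagaccaacaggTAcctgacagagcagc
Intergenic, 2 SB tails, chr2:98666916-98666945: cggaaaatgagaaaTAcacactttaggacg
Of the 240 PB positions, 238 lay on TTAA as deposited and 2 had none within 5 bases. Of the 220 SB positions, 215 lay on TA as deposited and 2 were moved to a TA within 5 bases. One of these 2 was the En2 position of SB tail 9, deposited at chr5:28169847. The other 3 had no TA within 5 bases, and all 3 were the same base of the En2 coding exon, chr5:28170144.

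Kept reads ranged from 72108 to 194744 per PB tail (median 123715) and from 55699 to 369482 per SB tail (median 104160). The tails listed 2060 to 7423 positions in PB and 2540 to 7149 in SB. Chromosome 14 was left out by the rule, and it held 8.91% to 45.1% of the lines of a tail and the most covered line of 13 tails. Sample names were written in 2 forms, joined in 5 PB and 7 SB tails and separated in 7 PB and 4 SB tails; 22 PB and all 11 SB tumours had the joined form. What the form stands for is not given, so it was treated as a possible batch.

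A property of the table touched the selection itself. Both strands were listed at 154 positions of the series, and at all 154 the 2 strands had exactly the same read number. Such positions therefore entered the sum at double their single-strand reads. Of the 460 positions, 31 were of this kind (18 PB and 13 SB, in 15 tails), 8 of them in En2. With these reads counted once, 22 of the 31 fell out of the 20 most covered of their tail (17 PB and 5 SB, in 11 tails). In comparison, 22 of the other 98880 tail positions were listed on both strands.

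The 20 positions held a small part of the reads of a tail. In PB tails they took 1.94% to 12.0% of the kept reads (median 3.96%) and in SB tails 2.89% to 7.01% (median 4.47%). By the same rule, the 20 positions of PB tumours took 14.2% to 95.6% (median 32.1%) and those of SB tumours 10.6% to 82.4% (median 22.6%). No tail therefore reached the lowest PB tumour, and no SB tail the lowest SB tumour. The single most covered position took a median of 0.772% of reads in PB tails and 1.05% in SB tails, compared to 4.23% and 5.81% in tumours. At the edge of the selection, the position of rank 20 had 55 to 234 reads in PB tails and 32 to 358 in SB tails. The position of rank 21 had 52 to 232 and 32 to 335 reads, so the last positions inside and the first outside hardly differed. The most covered position had 2.23 to 85.1 times the reads of rank 21 in PB tails and 3.66 to 50.9 times in SB tails.

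**Figure D1:**
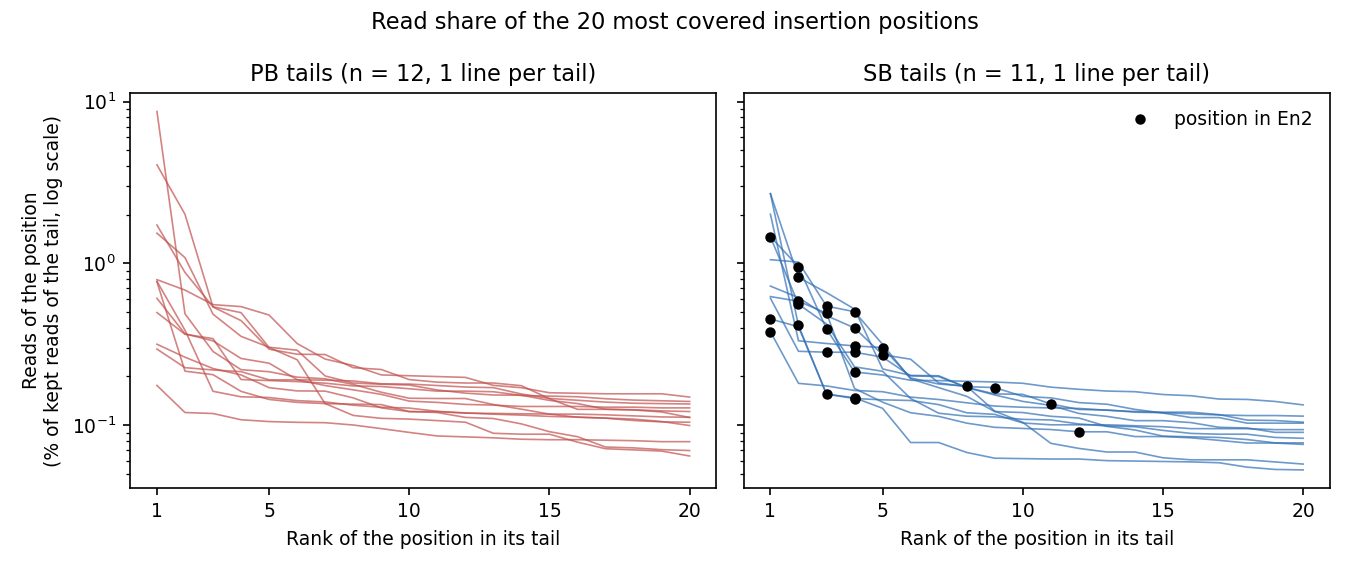
Reads, summed over strands, of each of the 20 most covered positions as percent of the kept reads of its tail (log axis) against rank, 1 line per tail, PB tails left and SB tails right. Black points mark positions in En2. A single PB tail starts at 8.69%, most lines flatten after the first few ranks, and En2 points lie among the first ranks in all 11 SB tails.

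In PB tails, 6 positions in 4 tails took at least 1% of the reads, all of them in genes. Of the 6, 4 were listed in another PB sample, compared to 8.60% of the other PB tail positions. The largest of the 6 was in PB tail 12, where an insertion on the plus strand in an intron of Tomm20 took 15231 reads, 8.69% of the tail. Tomm20, on the minus strand, codes for a receptor that imports proteins through the outer mitochondrial membrane, and the insertion was 600 bases from an annotated start site. The next position of this tail had 855 reads. The Tomm20 site was also listed in PB tail 10, with 46 reads.

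PB tail 3 had a pair of leading positions, both on the minus strand in genes of the plus strand. The first, in an intron of Rwdd4a, had 3570 reads (4.06%), and the second, in an intron of Xrn1, had 1766 reads (2.01%). Xrn1 is an exoribonuclease that degrades decapped mRNA. Both sites were listed in PB tail 4 as well, with 9 and 2 reads. PB tail 6 likewise had a pair, in Fbxw11 with 2962 reads (1.54%) and in Khdrbs2 with 2091 reads (1.08%), each on the strand of its gene. The Khdrbs2 site was also listed in PB tumour 3, with 2 reads. Fbxw11 is a substrate-binding subunit of an SCF ubiquitin ligase, and Khdrbs2 is an RNA-binding protein. In PB tail 2, the leading position was in a coding exon of Plec, which encodes the cytoskeletal linker plectin, with 1931 reads (1.72%). It was the one coding-exon position among the 240 of PB tails.

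The other PB tails had no position of 1%. Their leading positions were in introns of Tet2 (PB tail 10, 1464 reads), Dnm3, a dynamin GTPase of membrane fission (PB tail 5, 675 reads), and Ebf3, a transcription factor (PB tail 7, 400 reads). In the 5 remaining PB tails the leading position was intergenic, with 316 to 656 reads. The one of PB tail 11 was also listed in PB tail 10, with 16 reads. The one of PB tail 4, 3764 bases from Ccdc90b, had a flank that occurs more than once in the genome, so its placement is uncertain.

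In SB tails, 7 positions in 6 tails took at least 1% of the reads, 5 of them in genes. Of the 7, 2 were listed in another SB sample, compared to 1.07% of the other SB tail positions. With reads of both strands counted once, 6 positions in 5 tails took at least 1%, since the En2 position of SB tail 2 then had 738 reads (0.737%). In SB tail 7, an insertion on the plus strand in an intron of Bmpr1b, a type I receptor of bone morphogenetic proteins, took 2870 reads (2.70%). SB tail 9 reached the same share, 2.69%, with 7590 reads at an intergenic position 139680 bases from its nearest gene, 1700031L13Rik. In SB tail 6, an intron of Csmd1, a large transmembrane protein with complement-control domains, held 1120 reads (2.01%), whereas rank 2 of that tail had 185 reads. The Csmd1 site was also listed in SB tumour 11, with 2 reads.

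SB tail 10 was led by an intron of Atg5, which is needed to form autophagosomes, with 3922 reads (1.46%). SB tail 11 had a pair of leading positions, an intergenic one of 3891 reads with a repeated flank and one in an intron of Tlcd4 of 3764 reads. In SB tails 2, 3 and 8 the leading position was in En2, with 1476 (738 on each strand), 338 and 1207 reads. SB tails 1, 4 and 5 were led by Nfu1 (634 reads), which takes part in iron-sulphur cluster assembly, an intergenic position near Zwint (418 reads, repeated flank) and the non-coding gene Gm32210 (682 reads). The Nfu1 site was also listed in SB tumour 3 (39 reads), and the Gm32210 site in 2 SB tumours (up to 20 reads). No 2 tails of either system outside En2 had the same leading position.

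Positions rarely recurred as most covered in more than 1 tail. The 240 PB positions were 240 distinct sites, and the 220 SB positions were 199. Only 6 sites ranked among the 20 most covered in 2 or more tails, all in SB, and they held 27 positions. A total of 5 of these sites were in En2 and the other was chr2:98666931. With reads of both strands counted once, chr2:98666931 stayed among the 20 most covered in SB tail 2 only. In PB, 213 of 240 positions (88.8%) were listed in no other sample of the series, compared to 91.4% of the other PB tail positions. In SB these were 160 of 220 (72.7%) and 98.9%. A listing in the other transposon system was found for 0 of 460 positions and for 25 of the 98880 others (0.0253%), so the 0 is no result about the most covered positions.

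En2 encodes a homeobox transcription factor of the midbrain and hindbrain, and its splice acceptor is in wide use in gene trap cassettes. Whether the ITP transposon carries this element is not stated in the sources used here. The gene spans 6.495 kb on the plus strand (chr5:28165696-28172190). It held 26 positions among the 20 most covered, with 1 to 3 in each of the 11 SB tails, and 11 of 11 SB tails had one among their 5 most covered. Its 26 positions lay within 388 bases, 14 in the intron and 12 in the coding exon, 13 on the plus strand, 5 on the minus strand and 8 on both.

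The site used most, chr5:28170235 in the coding exon, was listed in 10 SB tails and 10 SB tumours. It was listed on both strands in 6 SB tails, where the reads of each strand were 1280 in tail 10, 928 in tail 11, 283 in tail 2, 188 in tail 5, 165 in tail 4 and 72 in tail 7, and the sums were double these. On 1 strand it had 438 reads in tail 9, 165 in tail 8, 109 in tail 3 and 97 in tail 6. Only in tail 8, at rank 790, was it outside the 20 most covered by summed reads. In SB tumours the same site had 2 to 234 reads summed over strands and at best rank 22. It was listed on both strands in 6 of the 10 tumours, and the 234 reads were 117 on each strand. At the site chr5:28169852, 5 SB tails had 257 to 2010 reads. The position of SB tail 9 (416 reads) was deposited at chr5:28169847 and assigned to this TA. At chr5:28169862, 5 SB tails had 172 to 1207 reads, and at chr5:28169871, 3 SB tails had 161 to 1164 reads. In SB tail 1 the positions chr5:28169852 on the plus strand and chr5:28169862 on the minus strand had 294 reads each.

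Reads in En2 made up 0.455% to 2.02% of an SB tail (median 0.842%) and 0.0545% to 0.732% of an SB tumour (median 0.330%), so the ranges overlapped. With reads of both strands counted once, the ranges were 0.455% to 1.09% (median 0.716%) and 0.0369% to 0.663% (median 0.281%). Counting once covered only positions listed on both strands at the same base. SB tumour 8, at 0.663%, kept 517 reads on the plus strand at chr5:28169862 and 517 on the minus strand at chr5:28169871. Of neighbouring positions on opposite strands within 30 bases, 14 of 29 in SB tails and 17 of 40 in SB tumours had equal reads. All 11 SB tumours listed En2, but only 3 of them had it among the 20 most covered. In PB, En2 was listed once in 1 of 12 tails and in 2 of 30 tumours, at no more than 0.00532% of the reads. The other recurrent site, chr2:98666931, lay closest to the non-coding gene Gm33780 and was among the 20 most covered in SB tails 2 (218 reads) and 6 (34 reads), in both on both strands. Counted once, it had 109 reads in SB tail 2 and 17 in SB tail 6. In SB tail 6, where rank 20 had 32 reads, it then fell out of the 20 most covered. One of its flanks occurs 46 times in the genome. The 10-kb window around it held 5 of the most covered positions, in 3 SB tails, and 59 positions over all 11 SB tails, compared to 1 position in the 12 PB tails.

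**Figure D2:**
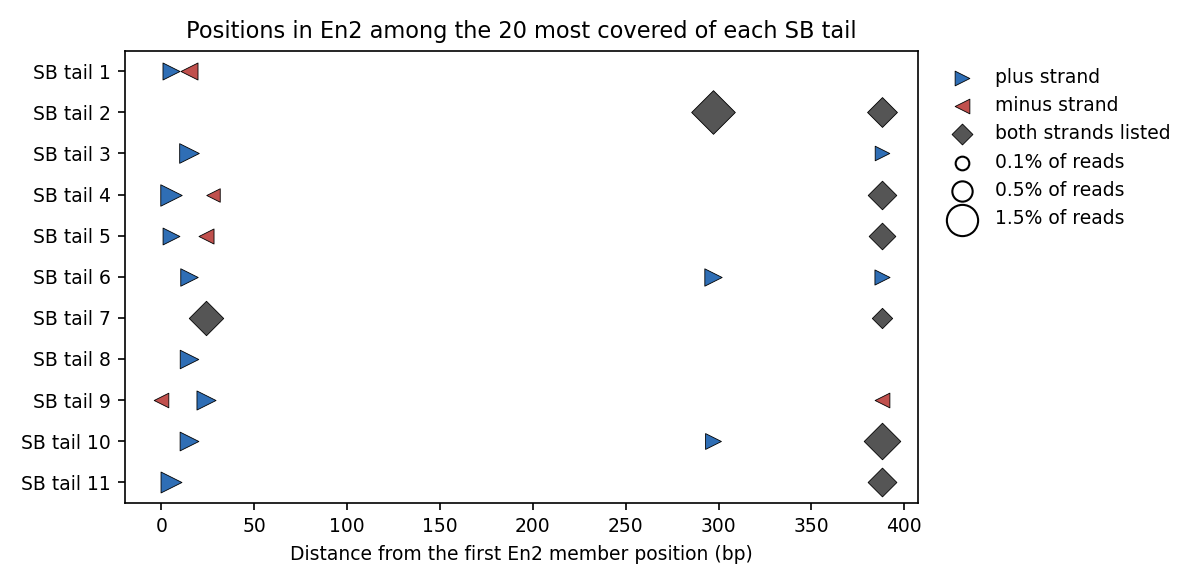
Positions in En2 among the 20 most covered of each SB tail (rows), by distance in bases from the first of them; triangles give the strand, diamonds mark positions listed on both strands, and marker area grows with the share of reads summed over strands. The 26 positions fall within 388 bases in all 11 SB tails, and 9 of them at the same base.

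Beyond these sites, 7 genes held most covered positions of 2 tails by reads summed over strands, at different positions each time. In PB tails 7 and 9, Adam10, a metalloprotease that sheds cell surface proteins, held 244 and 236 reads, both on the strand of the gene. The same 2 tails held positions in Etv6, a transcriptional repressor of blood cells, with 184 and 203 reads, both against the strand of the gene. Csmd1 held positions in SB tails 6 and 11 (1120 and 1166 reads), both on its own strand, and Unc5c, a netrin receptor, in SB tails 4 and 7 (57 and 121 reads) on opposite strands.

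A further 3 genes were shared by the systems. Arid1b, a subunit of the SWI/SNF chromatin remodeller, held 133 reads in PB tail 5 and 100 in SB tail 3. Cnot6l, a deadenylase, held 230 reads in PB tail 9 and 363 in SB tail 11, and Ccser1 held 116 in PB tail 4 and 358 in SB tail 10. The Cnot6l position of PB tail 9 was listed on both strands with 115 reads each, where rank 20 had 203 reads. Counted once, it fell out of the 20 most covered, which left Cnot6l with SB tail 11 only. These genes were 93.9 to 1643 kb long, and each had 16 to 66 positions over all tails. In all, 243 genes held most covered tail positions, and 22 of them also held one of the 20 most covered positions of a tumour. These 22 were 9.05% of the tail genes and 4.91% of the 448 tumour genes. Of the 12853 genes that held other tail positions, 3.19% held such a tumour position, but these genes were shorter (median 35.8 kb against 103 kb). Counted by position, the 448 genes held 5.83% of the most covered and 5.56% of the other PB tail positions. In SB they held 16.4% and 5.32%, and without En2 5.16% and 5.31%.

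Lists of genes known for clones in blood, epithelium or tumours were then counted, with no test. The 14 annotated clonal haematopoiesis genes held 2 of the 240 PB positions (0.833%), compared to 20 of the 48293 other PB tail positions (0.0414%). Tet2, the dioxygenase that oxidises 5-methylcytosine in DNA, was the leading gene of PB tail 10 with 1464 reads (0.774%) at chr3:133469122, on the strand opposite to the gene and in no other sample. The second position was in Jak2, a cytokine receptor kinase, at rank 12 of PB tail 12 with 256 reads. It was listed on both strands with 128 reads each and would rank 37 if counted once. The SB positions had 0 of 220 in this list, compared to 27 of 50587 others (0.0534%).

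From the list of genes mutated in clones of normal epithelium, Notch1 was hit in PB tail 7 (188 reads, rank 17) and Arid1a in SB tail 11 (316 reads, rank 15). Notch1 is a cell fate receptor, and Arid1a a subunit of the SWI/SNF remodeller. The Notch1 site was not particular to this tail, since it was listed in 6 other PB samples, in 5 tails and 1 tumour, with up to 90 reads. This was 1 of 240 PB positions (0.417%) and 1 of 220 SB positions (0.455%), compared to 0.367% and 0.204% of the other tail positions.

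From the list of growth genes and oncogenes, SB tail 5 had a position in Apc, a negative regulator of Wnt signalling, with 241 reads on the strand of the gene. The Apc site was listed in 1 other tail and 3 tumours, up to rank 12 in SB tumour 5. Outside En2 and the chromosome 2 window, SB tail 5 shared 11 most covered positions with SB tumour 5. The Apc site was 1 of these 11, and 11 of 11 were on the same strand. Of the other SB tail positions, 0.192% lay in growth genes and oncogenes of the list. The dermal list had 1 position, in Fbn2, a microfibril protein (SB tail 2, 109 reads), where the other tail positions had 0.304% in PB and 0.174% in SB. The keratinocyte and Hippo pathway lists had 0 of 460, and among the other positions they had 0.414% and 0.217% in PB and 0.144% and 0.125% in SB. Such shares allow about 0 to 1 position of this number, so these counts are no result about the most covered positions. Genes of B cell lymphoma held 0 of the 240 PB and 0 of the 220 SB positions, compared to 54 of 600 (9%) in PB tumours and 13 of 220 (5.91%) in SB tumours. The other tail positions had 0.251% in PB and 0.123% in SB, so the 0 counts lie at the level of the tails as a whole. That last list was drawn from these tumours, so its tumour counts are not independent evidence.

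The positions were then compared with all other positions of the same tail by a permutation test that flips the sign of each tail's difference, two-sided and exact over all patterns, with adjustment over 16 tests. In PB tails none of 8 measures passed. Inside genes lay 61.7% ± 8.35 of the most covered positions (SD, n = 12) and 60.6% ± 1.29 of the others, with an adjusted p of 0.742. Within 5 kb of a start site were 27.5% ± 9.17 and 25.6% ± 0.858 (adjusted p = 0.742). Of those in genes, 40.8% ± 21.9 and 49.4% ± 1.17 were on the strand of the gene, lower in 9 of 12 tails (adjusted p = 0.439). The plus strand held 46.9% ± 11.1 and 49.3% ± 1.03 (adjusted p = 0.731). The base context of PB, T as the third base before TTAA and A as the third after it, was found at 18% ± 10.5 and 21.1% ± 0.957 (adjusted p = 0.616), and repeated flanks at 8.75% ± 7.11 and 6.41% ± 0.42 (adjusted p = 0.616).

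In SB tails, 2 of 8 measures passed. A share of 27.3% ± 19.8 (SD, n = 11) of the most covered positions were listed in another SB sample, compared to 1.10% ± 0.599 of the others. The share was higher in 11 of 11 tails (sign permutation, p = 0.000977, the smallest that 11 tails can give, adjusted p = 0.0156). A site listed in several SB tails counted as shared in each of them, and En2 held 1 to 3 positions in every SB tail. The tails were therefore not independent for this measure, although the test treats them as independent. GC in the 100 bases on each side was 39.5% ± 1.5 against 37.2% ± 0.171, higher in 10 of 11 tails (adjusted p = 0.0156). Both differences moved with En2, whose positions had 46% to 54% GC. Without En2 and the chromosome 2 window, the differences were 13.6 points for sharing (adjusted p = 0.25) and 0.795 points for GC (adjusted p = 0.74). Within the 7 joined and 4 separated SB tails the differences were 33.8 and 12.9 points for sharing and 2.51 and 1.95 points for GC. Without SB tails 1 and 5 they were 18 and 2.32 points. The smallest p of the sign permutation is 0.0156 for 7 tails, 0.125 for 4 and 0.00391 for 9. With 7 or 4 tails 1 or 2 measures cannot pass over 16 tests, so these subsets do not test whether the calls hold. With 9 tails 1 measure alone cannot pass but 2 at the smallest p can, so the loss of both calls there was not fixed in advance.

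Positions within 5 kb of a start site made up 20% ± 7.07 of the most covered and 13% ± 0.494 of the other SB positions, with adjusted p = 0.0573. All 26 En2 positions were within 5 kb of a start site, and outside En2 there were 18. Without En2 and the chromosome 2 window this difference turned to -1.23 points. Inside genes lay 58.6% ± 11.0 and 51.3% ± 0.931 (adjusted p = 0.23). On the strand of the gene were 50% ± 21.6 and 47.8% ± 0.949 (adjusted p = 0.751), and on the plus strand 52.2% ± 11.3 and 50.7% ± 0.841 (adjusted p = 0.742). The base context of SB, A as the third base before TA and T as the third after it, was found at 51.2% ± 9.12 and 55.4% ± 0.945 (adjusted p = 0.439), and repeated flanks at 17.3% ± 5.64 and 18% ± 0.451 (adjusted p = 0.742).

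**Figure D3:**
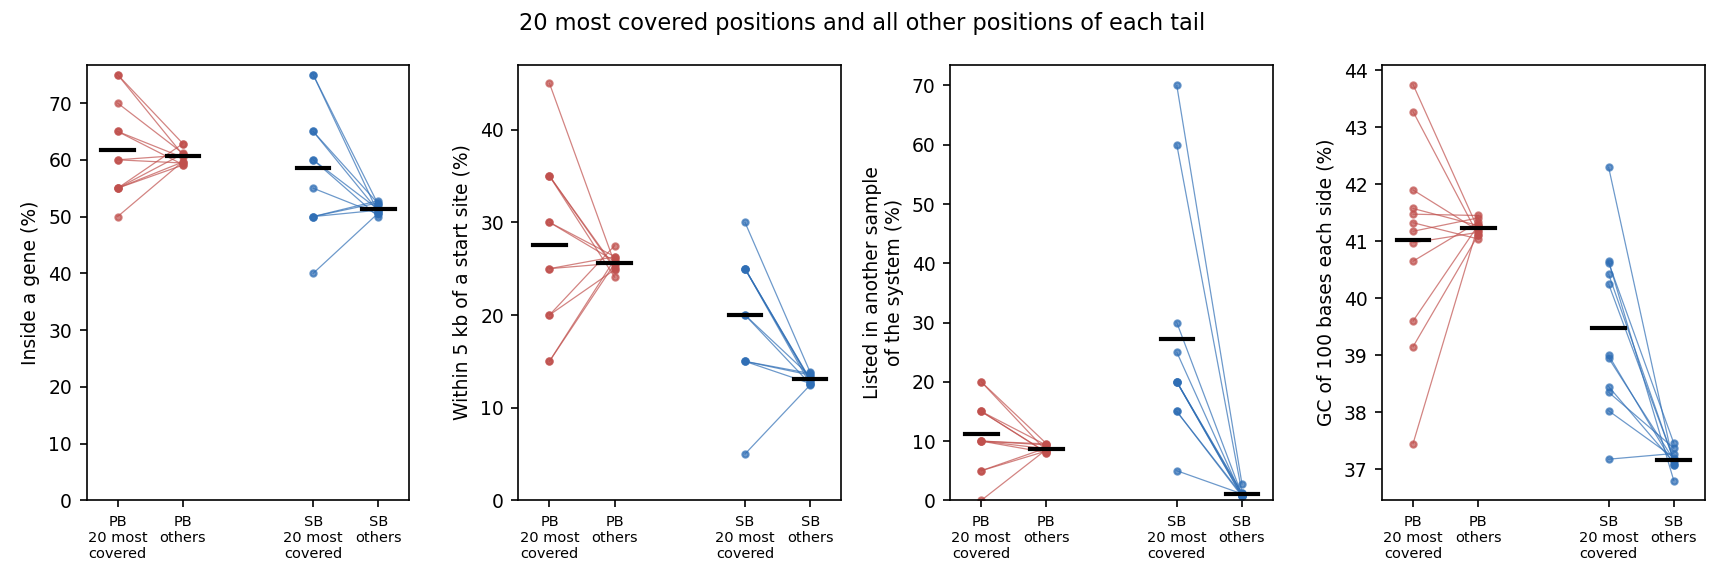
The 20 most covered positions and all other positions of each tail (1 line per tail, black bars are means) for 4 measures, PB red and SB blue. The PB lines go both ways, whereas sharing was higher among the most covered positions in 11 of 11 SB tails and GC in 10 of 11; the GC axis does not start at 0.

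The difference between most covered and other positions was itself compared between the systems. It differed for sharing, by -23.7 points for PB minus SB (permutation test, adjusted p = 8e-05), and for GC, by -2.52 points (adjusted p = 0.00432). Without En2 and the chromosome 2 window these were -11.0 and -1.01 points, with an adjusted p of 0.62 for each.

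Outside those loci, some of the most covered positions were also listed in other samples of their system. In PB there were 27 of 240 (11.25%), near the 8.60% of the other PB tail positions. Of the 27, 21 were listed in only 1 other sample, and the highest other sample had a median of 3.40% of the tail's reads at the site. None was among the 20 most covered of another sample. In SB there were 29 of 189 (15.3%), compared to 0.978% of the other SB tail positions. Of the 29, 25 were listed in tumours, and the highest other sample had a median of 15.7% of the tail's reads. A total of 2 were among the 20 most covered of a tumour, the Apc site and an intergenic one near Tmem214 (138 reads in SB tail 1 and 1032 reads, rank 4, in SB tumour 3). The difference between PB and SB in these values was not tested.

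These shared SB positions were concentrated in few libraries. SB tail 5 shared 11 with SB tumour 5 and 9 with SB tumour 6, and SB tail 1 shared 8 with SB tumour 3. In the pair of SB tail 5 and SB tumour 5, reads were 97 to 682 in the tail and 2 to 134 in the tumour. In the pair of SB tail 1 and SB tumour 3 they were 108 to 634 and 13 to 1032. The pairs of SB tail 5 with SB tumour 5 and of SB tail 1 with SB tumour 3 have sample names with the same beginning. The next letter of the name differed between tail and tumour in both. In these 2 pairs, 19 of 19 shared positions were on the same strand. Over all positions, SB tail 5 shared 1.11% of its positions with SB tumour 5, and SB tail 1 shared 0.670% with SB tumour 3. In the other 119 pairs of an SB tail and an SB tumour, the median was 0.0289% and the highest value 0.956%. SB tail 5 also shared positions with SB tumours of different name beginnings. The shares were 0.956% with SB tumour 6 (43 of 43 on the same strand), 0.867% with SB tumour 11 (37 of 39) and 0.512% with SB tumour 4 (23 of 23). Of the 7 PB pairs of tail and tumour with the same name beginning, 0 shared a most covered position. Of the 353 other PB pairs of tail and tumour, only 26 did, so this 0 is no result about the 7 pairs. Over all positions the 7 pairs shared a median of 0.242%. PB libraries with different name beginnings also stood out over all positions. PB tails 10 and 12 shared 67 positions, 1.70% of those of tail 10, with 57 of 67 on the same strand and the Tomm20 site among them. PB tail 9 and PB tumour 30 shared 45 positions (1.22%), 43 of 45 on the same strand. The medians of such PB pairs were 0.324% between tails and 0.228% between a tail and a tumour. Whether such libraries came from 1 mouse, or share DNA in another way, was not tested.

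Finally, the 20 most covered positions of tails were compared with those of tumours, with adjustment over 16 tests. Specifically, 61.7% ± 8.35 (SD, n = 12) lay in genes in PB tails and 77.3% ± 14.1 (n = 30) in PB tumours, a difference of -15.7 points (permutation test, p = 0.00109, adjusted p = 0.0174). PB tails ranged from 50% to 75% and PB tumours from 45% to 100%, so the groups overlapped. Within the joined and the separated names the difference was -15.0 and -14.9 points, with adjusted p = 0.26 and adjusted p = 0.30. Sharing (11.2% ± 6.08 against 24% ± 17.8, adjusted p = 0.0983) and GC (41.0% ± 1.71 against 39.6% ± 1.52, adjusted p = 0.0983) missed the threshold in PB. In SB, 58.6% ± 11.0 of tail and 60.5% ± 14.2 of tumour positions were in genes (adjusted p = 0.992), and none of the 8 measures passed.

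**Figure D4:**
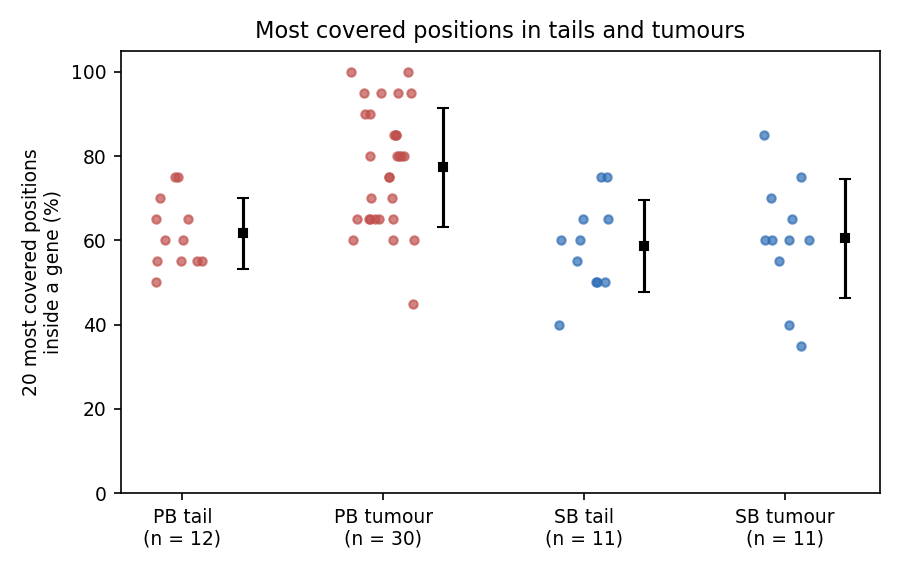
Share of the 20 most covered positions that lay inside a gene, 1 point per sample, with the mean and SD as black squares and bars. PB tails average 61.7% and PB tumours 77.3%, and both SB groups average close to 60%, with wide overlap between tissues.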

How the data were processed

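Splinkerette PCR junctions of transposon and genome were sequenced on an Illumina MiSeq (75 bp, paired-end). The deposited table holds 1 line per sample, position and strand, with read coverage as whole-number counts of reads; the lowest count of a line was 2. The authors placed positions on mm10; the aligner, the caller and read filters are not given in the sources used here. A further per-sample column (1), each read count divided by the highest of its sample, was not used.

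Positions were annotated with the RefSeq genes of GRCm38.p6, the same build. A site was counted as shared where the nearest TTAA or TA within 5 bases was the same. The deposited position is in most cases either middle base of the motif, and a few lie some bases away. A flank was repeated if its 30 bases occurred more than once in the genome. Groups came from the labels, with 1 sample per tail. Tests used permutation of signs over tails (all patterns) or of groups (100000 resamples, exact for fewer than 10 samples), two-sided, with Benjamini-Hochberg adjustment and a threshold of 0.05 (Python 3.11.15, numpy 2.4.6, pandas 2.3.3). The tests were checked on simulated tails. Sites of 1 mouse share their library, so tails and not positions were the replicates, and p-values measure the spread between these samples. Sharing is defined across the samples of a system, so samples were not independent in the tests of sharing, which did not account for this.

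Genes were named where they held the leading position of a tail, most covered positions of at least 2 tails or a member of 8 gene lists (1 of them 3 loci, En2, Foxf2 and Sfi1, of which only En2 held most covered positions). Genes or neighbours of positions of at least 1% of reads, or shared with other samples, were added after their values were seen. The positions and lists were chosen with earlier results of these data known. Alternatives were 10 or 50 positions per sample, others with at least 10 reads or of rank 21 to 200, name forms, positions in no other sample and protein-coding genes only. A further 4, chosen after seeing the data, counted reads of positions on both strands once, left out En2 and the chromosome 2 window, left out SB tails 1 and 5, and matched exact positions. Read shares carry PCR error that counts do not show. A result of the growth gene list is not reported here.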

Additional observations from a re-analysis of the deposited data

Results flagged for a closer look

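The difference between the 20 most covered and the other positions of a tail was not the same in the 2 systems for 2 of 8 measures. For the share of positions listed in another sample of the system it was lower in PB than in SB tails by -23.7 points (2.52 ± 6.05 in PB, n = 12, and 26.2 ± 19.3 in SB, n = 11; p = 1e-05 in a permutation test, where 100000 resamples allow no lower value). For GC it was lower by -2.52 points (-0.212 ± 1.74 in PB and 2.30 ± 1.56 in SB; permutation test, p = 0.00108). Both missed the threshold without En2 and the chromosome 2 window. Sharing is defined across the samples of a system, so the tails were not independent in its test.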

How the results depend on the processing

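All values are percentage points, most covered minus other positions of the tails or, where said, tails minus tumours. Of the alternatives, 221 kept the direction and the side of the threshold, 43 turned the direction, 13 lost a call and 9 gained one. The cause was not tested, except that smaller sets have fewer tails or positions. No paired analysis was possible because the labels give no replicate numbers that pair samples across groups; most covered and other positions were compared within each tail. Depth limits the ranks near 20, where neighbours differ by few reads.

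Calls were lost as follows. Without En2 and the chromosome 2 window, sharing in SB was 13.6 and GC 0.795, and the PB minus SB values were -11 and -1.01. In subsets of 4 or 7 SB tails 1 or 2 measures cannot pass over 16 tests, so the values there are no test of stability. With 9 SB tails 1 measure alone cannot pass, but 2 at the smallest p can. Without SB tails 1 and 5, which left these 9, sharing was 18 and GC 2.32 in SB. By name form, joined and then separated, SB sharing was 33.8 and 12.9, SB GC 2.51 and 1.95, and PB tails minus tumours in genes -15 and -14.9. With positions in no other sample, SB GC was 1.27.

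Calls were gained for SB start sites with 10 positions (14.2), 50 positions (2.59) and protein-coding genes (8.57), and for the SB base context with 50 positions (-4.8). For tails minus tumours they were gained for PB sharing with 10 positions (-20.2) and reads counted once (-15.2), for PB GC with 50 positions (1.2) and joined names (2.6), and for SB GC with 10 positions (2.81).

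The direction turned for results that had missed the threshold. In PB tails it turned for genes with 50 positions (-1.45), positions in no other sample (-0.477) and reads counted once (-1.43), and for start sites with 50 positions (-0.00261) and reads counted once (-0.657). It also turned for base context with 10 positions (0.828), GC with joined names (0.96), and the plus strand (2.39) and repeated flanks (-0.796) with separated names.

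In SB tails, positions in no other sample gave -0.0673 for genes, -3.56 for start sites and -0.227 for the plus strand. Without En2 and the window, start sites were -1.23, the gene strand -1.08 and the plus strand -0.704. Against ranks 21 to 200, the gene strand was -1, base context 0.972 and repeated flanks 3.33. Repeated flanks were 0.35 against others with at least 10 reads and 0.114 with joined names. With separated names the plus strand was -1.19 and base context 3.46.

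For PB tails minus tumours, the gene strand was 0.368 with 10 and 4.78 with 50 positions. Repeated flanks were -0.1 with 50 positions and -1.16 with separated names, which gave -5.26 for base context. For SB tails minus tumours, 10 positions gave 0.909 for genes, 4.95 for the plus strand and 2.73 for sharing, the last also for exact positions (2.73). With 50 positions, start sites were -2.18, the gene strand 3.5 and the plus strand 3.78. Joined names gave 0.26 for genes, 0.964 for the plus strand, -0.489 for base context and 7.27 for sharing. Without En2 and the window, GC was -0.459 and start sites -4.09, and without SB tails 1 and 5 the plus strand was 1.71. For PB minus SB, start sites turned to 3.08 without En2 and the window, and base context to -1.28 without SB tails 1 and 5.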
